A study of Mus musculus with 6 samples.

Results

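The 48 genes described here encode the machinery that copies DNA and the machinery that divides the chromosomes. They were chosen by name, and their probes were the non-control probes whose RefSeq accession in the scanner files matched a listed gene. All 48 genes matched, through 63 probes, among 15646 genes with a symbol and 25899 features tested on the arrays. RNA was taken from J1 mouse embryonic stem cells, a line derived from the inner cell mass of strain 129S4/SvJae. The cells were adapted to gelatin, and grown in Knockout DMEM with Knockout Serum Replacement. A set of 3 arrays held RNA from cells kept for 24 h with 3 µM SB431542, an inhibitor of the type I receptors for Nodal, activin and TGF-beta. The other 3 arrays held RNA from cells kept for 24 h with DMSO, the solvent. Both groups were kept in LIF at 1000 U/ml, the cytokine that supports self-renewal of mouse embryonic stem cells. The comparison addresses which transcripts differ when these receptors are inhibited under self-renewal conditions. All samples came from a single cell line at a single time, and the arrays measured transcript levels, not the rate of division.

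Before S phase, the CDC6 and CDT1 proteins load the MCM helicase onto origins, and CDC45 and the GINS complex then turn it into the moving helicase at which the polymerases work. Mitosis is driven by cyclin B with its kinase CDK1, by the Polo and Aurora kinases, by the spindle checkpoint and by the anaphase-promoting complex, which CDC20 activates. Many replication genes carry E2F sites near their start, while many mitotic genes carry a CHR element (cell cycle genes homology region) with nearby CCAAT boxes, to which the DREAM complex and NF-Y bind. Mouse embryonic stem cells divide fast and have a short G1 phase.

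RefSeq promoter windows of assembly GRCm38.p6, from 250 bases before to 50 after the transcription start, were matched for 39 of the 48 genes. The windows of 3 replication genes and 3 mitotic genes are printed 5′ to 3′ on the gene's own strand, to show what the promoters of both classes hold. Mcm2 (chr6:88898731-88899030, minus strand) and Mcm3 (chr1:20820263-20820562, minus strand) encode subunits of the MCM helicase. Pcna (chr2:132253131-132253430, minus strand) encodes the sliding clamp. Ccnb1 (chr13:100786437-100786736, minus strand) encodes cyclin B1. Plk1 (chr7:122159185-122159484, plus strand) encodes the Polo-like kinase. Bub1 (chr2:127831810-127832109, minus strand) encodes a spindle checkpoint kinase. Mcm3 and Bub1 were added after their values had been seen. Capitals mark every match on either strand to an E2F motif (TTGGCGC or TTCCCGC), a CHR motif (TTTGAA or TTCGAA) or a CCAAT box. In Ccnb1 an E2F match and a CCAAT match overlap, and in Mcm3 a pair of E2F matches on opposite strands overlap.
Mcm2: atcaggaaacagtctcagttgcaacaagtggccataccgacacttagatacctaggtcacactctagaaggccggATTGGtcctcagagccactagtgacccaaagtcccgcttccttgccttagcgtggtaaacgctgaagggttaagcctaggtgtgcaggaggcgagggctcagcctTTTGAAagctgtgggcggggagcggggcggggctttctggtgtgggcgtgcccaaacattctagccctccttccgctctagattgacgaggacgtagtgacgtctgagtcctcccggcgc
Mcm3: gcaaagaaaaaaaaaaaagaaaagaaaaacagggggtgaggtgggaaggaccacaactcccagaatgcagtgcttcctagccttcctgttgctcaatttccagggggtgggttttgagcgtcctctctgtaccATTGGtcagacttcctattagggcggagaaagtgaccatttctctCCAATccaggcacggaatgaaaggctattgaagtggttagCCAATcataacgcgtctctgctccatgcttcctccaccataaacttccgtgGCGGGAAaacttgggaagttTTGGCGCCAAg
Pcna: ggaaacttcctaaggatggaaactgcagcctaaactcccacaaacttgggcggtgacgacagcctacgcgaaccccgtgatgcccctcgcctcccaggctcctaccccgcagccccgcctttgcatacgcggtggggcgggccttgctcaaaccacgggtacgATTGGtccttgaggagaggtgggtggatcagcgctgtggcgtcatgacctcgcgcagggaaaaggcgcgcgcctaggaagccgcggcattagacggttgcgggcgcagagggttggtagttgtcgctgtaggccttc
Ccnb1: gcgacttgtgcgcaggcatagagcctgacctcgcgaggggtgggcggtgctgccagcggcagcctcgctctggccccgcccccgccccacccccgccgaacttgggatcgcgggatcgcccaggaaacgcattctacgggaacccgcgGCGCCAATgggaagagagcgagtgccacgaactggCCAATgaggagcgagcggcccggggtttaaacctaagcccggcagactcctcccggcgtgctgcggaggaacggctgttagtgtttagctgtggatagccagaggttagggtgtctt
Plk1: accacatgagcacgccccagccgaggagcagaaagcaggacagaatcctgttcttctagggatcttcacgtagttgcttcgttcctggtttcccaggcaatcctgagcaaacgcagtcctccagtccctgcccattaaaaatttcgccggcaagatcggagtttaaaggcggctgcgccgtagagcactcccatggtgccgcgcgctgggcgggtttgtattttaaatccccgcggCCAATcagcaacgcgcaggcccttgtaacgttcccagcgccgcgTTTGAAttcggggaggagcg
Bub1: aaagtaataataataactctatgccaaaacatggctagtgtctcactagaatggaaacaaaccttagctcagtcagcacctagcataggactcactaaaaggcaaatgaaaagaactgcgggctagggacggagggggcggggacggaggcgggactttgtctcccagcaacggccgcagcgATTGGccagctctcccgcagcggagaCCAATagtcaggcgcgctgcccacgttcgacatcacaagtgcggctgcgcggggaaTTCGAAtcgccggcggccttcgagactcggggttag

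Of the 43 windows of the 39 genes, 14 held an E2F motif, 19 a CHR motif and 30 a CCAAT box. An E2F motif was in 11 of 22 windows of the replication genes (50%) and in 3 of 20 windows of the mitotic genes (15%), against 6.81% of all 32851 promoter windows. A CHR motif was in 4 of 22 windows of the replication genes (18.2%) and in 15 of 20 windows of the mitotic genes (75%), against 19.2% of all windows. Each of those 15 mitotic windows also held a CCAAT box, a combination found in 7.52% of all windows. CCAAT boxes alone were in 59.1% of the replication windows and 85% of the mitotic windows, against 37.4% of all windows. In the printed windows, Mcm3 has its E2F matches at positions 20, 40 and 43 from the start and Bub1 has its CHR match at position 15. Mcm2 has a CHR match at position -70 and no E2F match of these letters. Pcna has neither an E2F nor a CHR match. Ccnb1 has an E2F match at position -102 and no CHR match, and Plk1 has a CHR match at position 31. A match describes letters only and shows neither binding nor use.

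Values below are the log2 of the background-subtracted signal minus the array's 75th percentile of that signal, so a level of 0 is as bright as the 75th percentile. Depth does not apply to arrays, and the number of arrays limits the precision. The labels do not say whether replicates of a group came from separate cultures, and p-values therefore reflect the spread of these samples alone, which may be technical. All 7 listed Nodal targets fell, among them Smad7, an inhibitory Smad gene, at -4.59 ± 0.05 (log2 difference and its SE). All 12 embryonic stem cell markers were well above background on all 6 arrays, and 1 rose and 3 fell. Over all features, 5.19% rose and 7.38% fell. Tdgf1, which fell, is on both this list and that of the Nodal targets. The summed level of the 12 markers on the linear scale, in multiples of the 75th percentile, was 551 to 606 on SB431542 arrays and 695 to 715 on DMSO arrays. Dppa5a, the brightest of them, weighs most in this sum, with mean log2 levels of 8.09 with SB431542 and 8.58 with DMSO. The median log2 change of the 12 markers was -0.06, with 5 above 0. Of 10 fibroblast markers, Lum, Postn and Twist2 were not well above background on any array, and the other 7 summed to 1.99 to 2.18 on SB431542 arrays and 2.49 to 2.69 on DMSO arrays. Of these 7, 4 fell, including Dcn, which was well above background on 3 DMSO arrays and 0 SB431542 arrays and so was tested only through the DMSO group. The 9 primitive endoderm markers, of which 1 rose and 1 fell, summed to 1.86 to 2.06 on SB431542 arrays and 2.03 to 2.30 on DMSO arrays. The part of these cells in the results was not tested. SB431542 replicate 3 lay alone on a second slide with another scan, and it stood apart on the component of second-largest variance (18.4%), at 30.8 against -19.5 and -19.9 for the other SB431542 arrays.

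The transcripts of the replication and mitosis machinery differed little between SB431542 and DMSO. None of the 48 genes passed the test (0 called by limma at an adjusted p under 0.05), against 12.6% of all 25899 features (15.4% of genes with a symbol), of which 1345 rose (5.19%) and 1912 fell (7.38%). At an unadjusted p under 0.05 there were 8 of the 48 (16.7%), with 6 higher (13.6% of all features) and 2 lower (14%), against 27.7% in either direction. With limma's trend and robust options 6 genes passed, with Cdt1, Cdc6, Mcm10, Fen1 and Mcm3 higher and Bub1 lower. With normexp background correction 2 passed, with Cdc6 higher and Bub1 lower. The 12.6% belongs to the main fit. The shares of all features called under these other settings are not given, so these counts lack a background. At the looser adjusted p under 0.1 the test passed 5 of the 48, of which 4 were higher (8.63% of all features) and 1 lower (10.4% of all features), against 19.1% in either direction. In these bulk samples, fewer cells of a cell cycle phase and less RNA per cell cannot be told apart.

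The size of change that the data leave room for was small as well. The median log2 change (SB431542 minus DMSO) of the 48 genes was 0.0085, against 0.02 over all features, and it was below 0 with normexp (-0.019) and with median centring (-0.0081). The median size of the change regardless of sign was 0.08 for these genes, against 0.14 over all features. For 47 of the 48 the estimate was under 1.2-fold in either direction. For 46 of the 48 (95.8%) the 95% interval of the log2 change lay inside -0.5 to 0.5, against 64.8% of all features, 70.7% of genes with a symbol and 69.1% of the 24155 features well above background on all 6 arrays. Pola1 and Aurkb were the exceptions. The replicate spread was also narrower for these genes than for features in general. The median SD was 0.06 over SB431542 arrays and 0.04 over DMSO arrays, against 0.12 and 0.07 over all features. In DMSO, 45 of the 48 genes, each read by its brightest probe, were brighter than the 75th percentile. These shares and spreads were not matched for brightness, whose part in them was not tested.

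**Figure D1:**
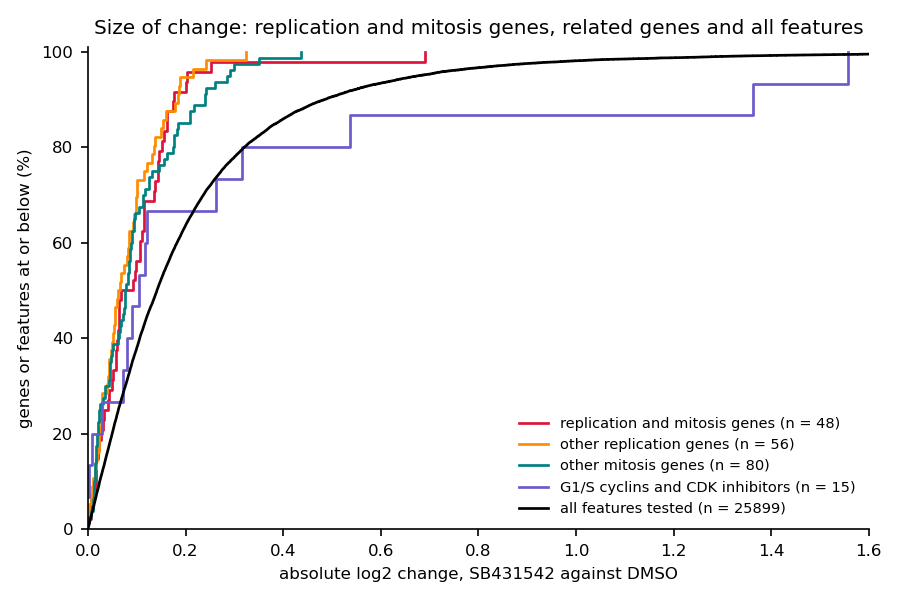
Share of genes or features (%, vertical axis) with an absolute log2 change, SB431542 against DMSO, at or below the value on the horizontal axis, for the 48 replication and mitosis genes, the related lists and all 25899 features. The median of the 48 genes is 0.08 and that of all features 0.14.

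All 63 probes of the 48 genes were well above background on all 6 arrays. For 45 of the 48 the mean level in DMSO was above the arrays' 75th percentile, the exceptions being Tyms, Aurkb and Cenpf, and a probe's brightness also depends on the probe itself. The percentile was taken before dim probes were left out, and the brightest probe stood for each gene. Both choices favour a high count, and no such share over all features is given. The SB431542 and DMSO values did not overlap for 16 of the 48 genes (33.3%), 8 higher (18.6% of all features) and 8 lower (17.3%), against 36% in either direction and 36.8% of features well above background on all 6 arrays. The split of signs was likewise near the background, with 26 of the 48 changes above 0 (54.2%), against 54.2% of all features. With normexp or median centring 22 of the 48 were above 0.

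**Figure D2:**
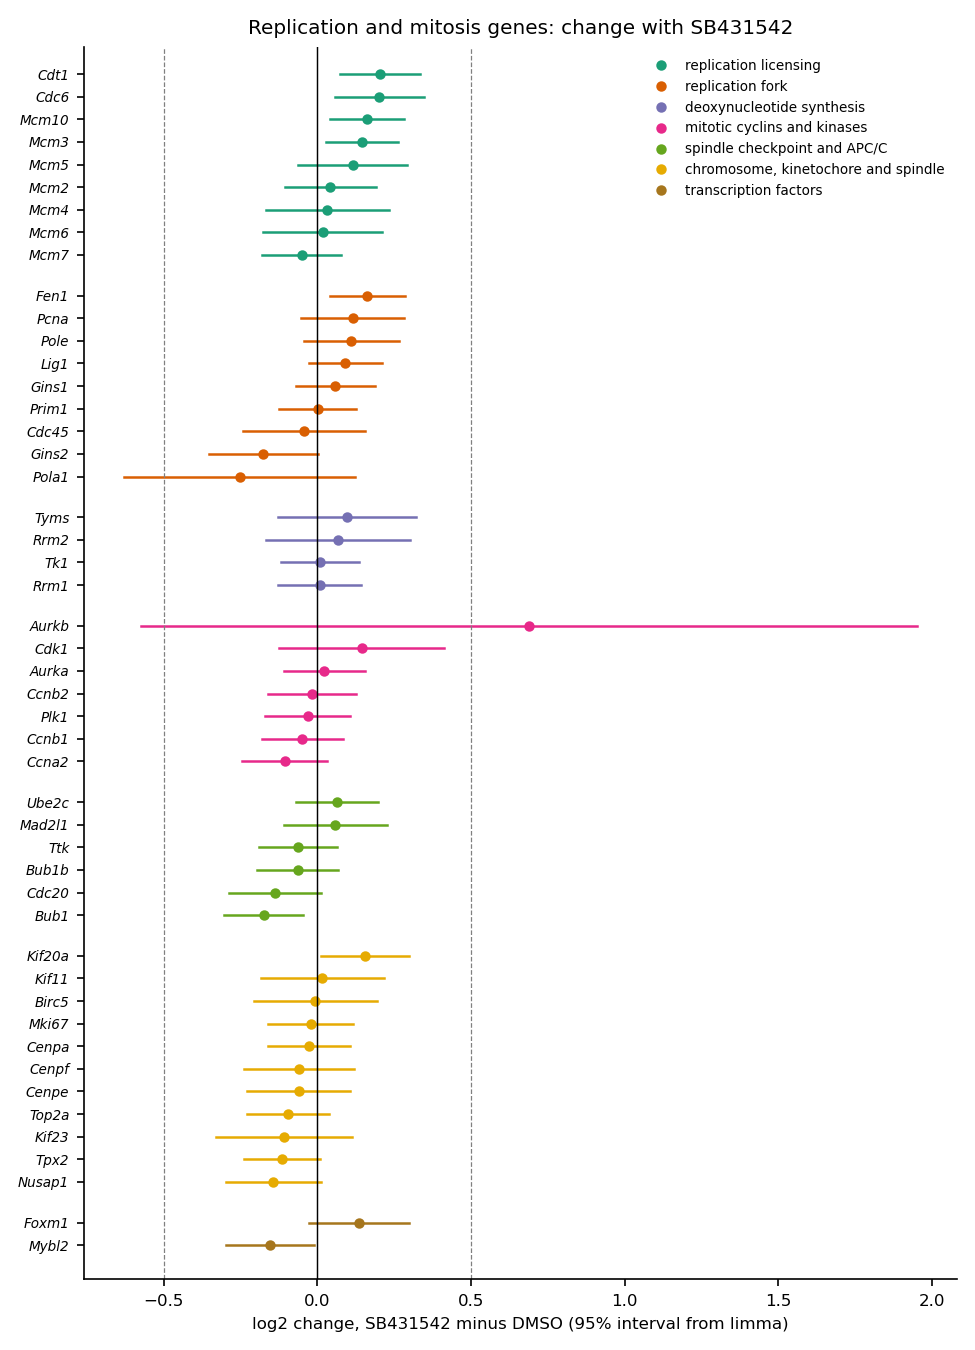
Log2 change (SB431542 minus DMSO, horizontal axis) of each of the 48 genes, ordered by role, with its 95% interval from limma (3 arrays per group). Intervals of 46 genes lie inside -0.5 to 0.5, and those of Pola1 (-0.63 to 0.12) and Aurkb (-0.57 to 1.95) do not.

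Among the 9 genes grouped as licensing, 8 changes were above 0 and the median was 0.12, with none past the test. Licensing prepares origins for replication, and the group also holds Mcm10, which acts on the helicase after loading. Cdt1, a helicase loading factor, had levels of 6.40, 6.51 and 6.46 on the SB431542 arrays and 6.26, 6.27 and 6.23 on the DMSO arrays. Every SB431542 value of Cdt1 was above every DMSO value, and the log2 change was 0.20 ± 0.05 (SE, 3 arrays per group), or 1.15-fold with an interval of 1.05 to 1.26 (limma adjusted p = 0.0614). Cdc6, its partner in loading, had 2.22, 2.19 and 2.34 with SB431542 and 2.04, 2.06 and 2.05 with DMSO. These groups did not overlap either, and the change was 0.20 ± 0.06 (limma adjusted p = 0.0843), while the other Cdc6 probe gave 0.26. Mcm10, which helps to activate the helicase, had 5.20, 5.25 and 5.20 with SB431542 and 5.06, 5.03 and 5.08 with DMSO. Its change was 0.16 ± 0.05 (limma adjusted p = 0.0916), with the SB431542 arrays all higher.

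Among the genes of the helicase ring, only Mcm3 had groups that did not overlap. Mcm3 had 6.06, 6.06 and 6.10 with SB431542 and 5.90, 5.95 and 5.92 with DMSO, a change of 0.15 ± 0.05 without overlap (limma adjusted p = 0.112). Mcm2 had 4.73, 4.85 and 4.90 with SB431542 and 4.78, 4.80 and 4.77 with DMSO. The Mcm2 groups overlapped, and its change of 0.04 ± 0.06 had an interval of -0.11 to 0.19. It was 0.09 without SB431542 replicate 1, 0.0058 without SB431542 replicate 3 and 0.10 with normexp. The subunit genes Mcm4, Mcm5, Mcm6 and Mcm7 had overlapping groups and changes between -0.05 for Mcm7 and 0.12 for Mcm5. The 6 genes of the helicase ring form a single complex, and their changes ran between -0.05 and 0.15, with none past the test.

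Among the 9 fork genes, which act where DNA is unwound and copied, 6 changes were above 0 and 3 below, with a median of 0.06, or 0.03 with normexp. Fen1, the nuclease that trims Okazaki fragments, had 5.12, 5.11 and 5.18 with SB431542 and 4.98, 4.95 and 4.99 with DMSO. Its groups did not overlap, and the change was 0.16 ± 0.05 (limma adjusted p = 0.0954). Lig1, the ligase that seals those fragments, also had no overlap, with a change of 0.09 ± 0.05 (limma adjusted p = 0.287). Pcna, the sliding clamp, had 6.83, 6.71 and 6.92 with SB431542 and 6.72, 6.71 and 6.69 with DMSO. Only SB431542 replicate 2 of Pcna lay within the DMSO range, and the change was 0.11 ± 0.07 (interval -0.05 to 0.28), or 0.06 without SB431542 replicate 3.

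Gins2, a GINS subunit, had a change opposite in sign to that of most fork genes, with 3.10, 3.06 and 3.04 with SB431542 and 3.37, 3.15 and 3.21 with DMSO. Its groups did not overlap, and the change was -0.18 ± 0.07 (limma adjusted p = 0.183), or -0.11 without DMSO replicate 1. Pola1, the catalytic subunit of polymerase alpha, had 2.90, 2.55 and 2.36 with SB431542 and 3.01, 2.81 and 2.74 with DMSO. The 3 SB431542 values spanned the widest range of any fork gene, and the change of -0.25 ± 0.15 had an interval of -0.63 to 0.12 (limma adjusted p = 0.345). Without SB431542 replicate 3 it was -0.13. The remaining fork genes Gins1, Cdc45, Pole and Prim1 had overlapping groups and changes between -0.04 for Cdc45 and 0.11 for Pole, the catalytic subunit of polymerase epsilon.

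All 4 genes of deoxynucleotide synthesis had changes above 0, against 2 of 4 with median centring, and none passed the test. Rrm2, the S phase subunit of ribonucleotide reductase, had 6.67, 6.75 and 6.41 with SB431542 and 6.52, 6.57 and 6.54 with DMSO. SB431542 replicate 3 lay below and the other SB431542 arrays above all DMSO arrays, and the change was 0.07 ± 0.10 (interval -0.17 to 0.30), or 0.17 without SB431542 replicate 3. Tk1, thymidine kinase of the salvage pathway, had 4.65, 4.73 and 4.70 with SB431542 and 4.71, 4.70 and 4.64 with DMSO. The Tk1 groups covered nearly the same range, with a change of 0.01 ± 0.05. The large reductase subunit gene Rrm1 changed by 0.01 ± 0.06, and Tyms, thymidylate synthase, by 0.10 ± 0.09. Without SB431542 replicate 2 the number above 0 was 1 of 4.

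Of the 7 mitotic cyclin and kinase genes, 3 had changes above 0 and 4 below, and the median was -0.02, with no settled sign. It was 0.0063 with normexp, 0.018 with the mean of probes, 0.0069 without DMSO replicate 3, 0.0029 without SB431542 replicate 1 and 0.019 without SB431542 replicate 3, which is also the slide block. Ccnb1, cyclin B1, had 5.42, 5.52 and 5.42 with SB431542 and 5.47, 5.52 and 5.52 with DMSO. Its groups overlapped and the change was -0.05 ± 0.05 (interval -0.18 to 0.08), while the other Ccnb1 probes gave 0.01 and 0.09. Ccna2, cyclin A2 of S phase and mitosis, had 4.57, 4.63 and 4.63 with SB431542 and 4.69, 4.68 and 4.79 with DMSO. The Ccna2 groups did not overlap, with a change of -0.11 ± 0.06 (limma adjusted p = 0.285), or -0.07 without DMSO replicate 3. Plk1 had 5.43, 5.53 and 5.53 with SB431542 and 5.54, 5.55 and 5.49 with DMSO, a change of -0.03 ± 0.06 with overlapping groups. Ccnb2 (-0.02 ± 0.06) and Aurka (0.02 ± 0.05), which encode cyclin B2 and the Aurora kinase of spindle poles, were as close to 0.

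For Aurkb and Cdk1 the estimate rested on SB431542 replicate 3. Aurkb, the Aurora kinase of the chromosomal passenger complex, had -2.76, -2.83 and -0.93 with SB431542 and -2.72, -2.92 and -2.94 with DMSO. SB431542 replicate 3 was far above the other 5 arrays, which lay close together. The change of 0.69 ± 0.51 had an interval of -0.57 to 1.95 (limma adjusted p = 0.438), and without that array it was 0.07 (limma adjusted p = 0.656). Over all features, 114 (0.44%) lay more than 1 log2 unit above all other arrays on SB431542 replicate 3, and 18 to 26 did so on each other array. Aurkb was the only 1 of the 48 genes among them. The cause, including a part of the slide and scan of that array, was not tested.

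The gene Cdk1, the kinase partner of cyclin B, was read by 3 probes. The brightest had 3.44, 3.48 and 3.82 with SB431542 and 3.40, 3.44 and 3.46 with DMSO, a change of 0.14 ± 0.11 (limma adjusted p = 0.445). SB431542 replicate 3 again was the array above the rest, and without it the change was 0.02. A second Cdk1 probe had -1.25, -1.36 and 0.45 with SB431542 and -1.55, -1.48 and -1.27 with DMSO. This probe showed the same array apart, with a change of 0.71. The third Cdk1 probe had -2.43, -2.45 and -2.47 with SB431542 and -2.53, -2.39 and -2.29 with DMSO. Here no array stood apart and the change was -0.04, so the 3 probes disagreed by 0.75 on the log2 scale. Of 11 genes with several probes, the other 10 had probes within 0.2 of each other, and 0 of the 63 probes passed when each probe was tested on its own, against 10.8% of the 36184 probes so tested.

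**Figure D3:**
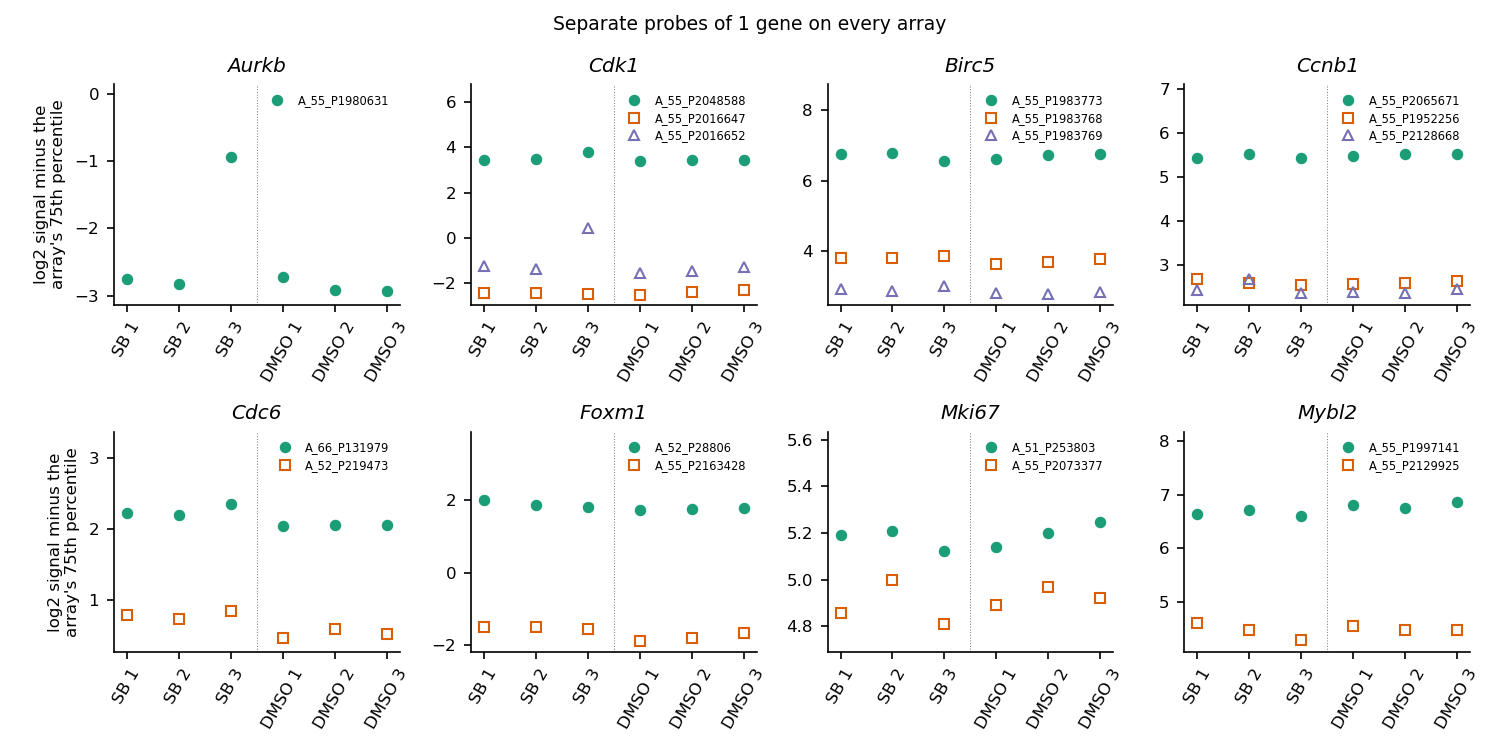
Level (log2 signal minus the array's 75th percentile, vertical axis) of the single Aurkb probe and of each probe of 7 genes read by several, with a marker per probe, on the SB431542 (SB) and DMSO arrays. The second Cdk1 probe (triangles) reads 0.45 on SB431542 replicate 3 and between -1.55 and -1.25 on the other arrays, while the third (squares) reads -2.53 to -2.29 on all 6.

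Of the 6 spindle checkpoint and anaphase-promoting complex genes, 4 had changes below 0, with a median of -0.06. Bub1, a checkpoint kinase, had 3.56, 3.58 and 3.58 with SB431542 and 3.69, 3.73 and 3.80 with DMSO. Its groups did not overlap and the SB431542 arrays were nearly equal, with a change of -0.17 ± 0.05, or 0.887-fold with an interval of 0.811 to 0.969 (limma adjusted p = 0.0911). Cdc20, the activator of the complex, had 5.98, 6.12 and 5.96 with SB431542 and 6.15, 6.17 and 6.15 with DMSO. All SB431542 values of Cdc20 were below the DMSO values, a change of -0.14 ± 0.06 (limma adjusted p = 0.213). The checkpoint genes Bub1b, Ttk and Mad2l1 and the ubiquitin-conjugating enzyme gene Ube2c had overlapping groups and changes between -0.06 and 0.06.

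Of the 11 genes of chromosome structure, kinetochore and spindle, 9 had changes below 0, with a median of -0.06. Without DMSO replicate 3 it was 6 with a median of -0.026, and without SB431542 replicate 3 it was 7 with a median of -0.022. Top2a, the topoisomerase that untangles sister chromatids, had 4.52, 4.54 and 4.55 with SB431542 and 4.57, 4.65 and 4.68 with DMSO. Its groups did not overlap, and the change was -0.10 ± 0.05 (limma adjusted p = 0.31). Nusap1, a spindle microtubule-binding protein, had 3.57, 3.58 and 3.45 with SB431542 and 3.61, 3.69 and 3.73 with DMSO. Again without overlap, Nusap1 changed by -0.14 ± 0.06 (limma adjusted p = 0.206), and Tpx2, a spindle assembly factor, by -0.12 ± 0.05 (limma adjusted p = 0.207). Mki67, the gene of the Ki-67 proliferation antigen, had 5.19, 5.21 and 5.12 with SB431542 and 5.14, 5.20 and 5.25 with DMSO. Its groups overlapped and the change was -0.02 ± 0.06 (interval -0.16 to 0.12).

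Kif20a, a kinesin of cytokinesis, lay on the other side, with 4.85, 4.80 and 4.94 with SB431542 and 4.68, 4.74 and 4.71 with DMSO. The Kif20a groups did not overlap, with a change of 0.16 ± 0.06 (limma adjusted p = 0.151). The motor gene Kif11 changed by 0.02 ± 0.08 and the motor gene Kif23 by -0.11 ± 0.09. The centromere genes Cenpa, Cenpe and Cenpf and the passenger complex gene Birc5 had overlapping groups and changes between -0.06 and -0.0062. The other probes of Birc5 gave 0.13 each, and on both every SB431542 value was above every DMSO value.

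The 2 transcription factor genes of the group differed in sign. Foxm1, an activator of mitotic genes, had 2.00, 1.87 and 1.81 with SB431542 and 1.73, 1.77 and 1.79 with DMSO. Its groups did not overlap, with a change of 0.14 ± 0.07 (limma adjusted p = 0.251), and its other probe gave 0.27. The change was 0.08 without SB431542 replicate 1 and 0.06 with normexp. Mybl2, the B-Myb gene, whose protein works with the MuvB complex, had 6.65, 6.71 and 6.60 with SB431542 and 6.81, 6.75 and 6.86 with DMSO. The Mybl2 groups did not overlap either, with a change of -0.15 ± 0.06 (limma adjusted p = 0.158), and its other probe gave -0.04.

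**Figure D4:**
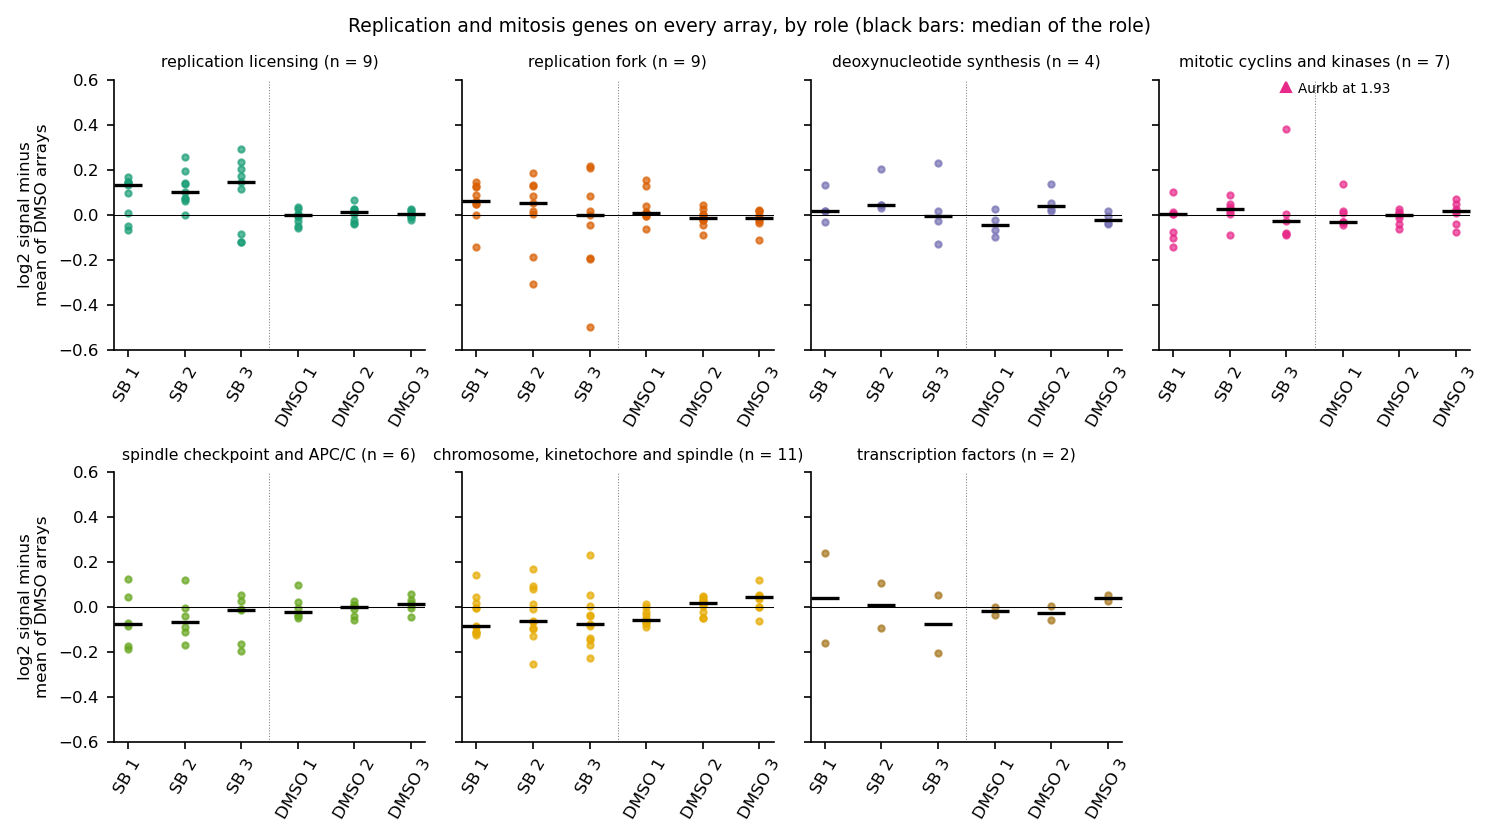
Level of each of the 48 genes relative to its mean over the DMSO arrays (log2, vertical axis) on the 3 SB431542 and the 3 DMSO arrays, in a panel per role, with the median of the role as a black bar. Medians of the licensing genes are 0.13, 0.10 and 0.15 on the SB431542 arrays, against -0.0016, 0.01 and 0.0027 on the DMSO arrays, and those of the chromosome, kinetochore and spindle genes -0.08, -0.06 and -0.07, against -0.06, 0.02 and 0.05 on the DMSO arrays.

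Placed side by side, the roles leaned to different signs, within a range that the test did not call. Of the 22 genes of replication (licensing, fork and deoxynucleotide synthesis), 18 had changes above 0, with a median of 0.06. Of the 24 genes of mitosis (cyclins and kinases, checkpoint, chromosomes and spindle), 17 had changes below 0, with a median of -0.04, and 54.2% of all features had a change above 0. On single arrays, the median of the replication genes minus that of the mitotic genes, each relative to the DMSO mean, was 0.15, 0.08 and 0.05 with SB431542 and 0.03, 0.0010 and -0.03 with DMSO. The SB431542 arrays all lay above the DMSO arrays in this difference, which is a description with no test. Of 80 further mitosis genes outside the 48, 42 had changes above 0. The count above 0 among the replication genes was 13 without SB431542 replicate 2 and 19 without SB431542 replicate 3, and the count below 0 among the mitotic genes was 13 without DMSO replicate 3 and 19 without SB431542 replicate 2. The median of the replication genes was 0.04 without SB431542 replicate 2, and that of the mitotic genes -0.027 without SB431542 replicate 3. The medians kept their signs, above and below 0, under each alternative that was run with 1 value per gene. The replicate block, the trend and robust options and the other probe filters left both medians at the main values. The slide block is the fit without SB431542 replicate 3. Only the remaining alternatives bear on the signs.

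The promoter motifs were set beside the changes in the same way. The 10 genes with an E2F and no CHR motif in their windows had a median change of 0.05, with 8 above 0. Their changes ran from -0.25 for Pola1 to 0.20 for Cdt1. The 16 genes with a CHR and no E2F motif had a median of -0.04, with 11 below 0. Changes in this set ran from -0.17 for Bub1 to 0.16 for Fen1. The 3 genes with both motifs had a median of -0.02 and the 10 genes with neither motif a median of 0.03. All genes with an E2F and no CHR motif except Ccnb1 belong to replication, and all with a CHR and no E2F motif except Cdc45, Fen1 and Mcm2 belong to mitosis. No test was made of these medians.

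The spread among replicates was not the same in both groups. The range over the SB431542 arrays was wider than that over the DMSO arrays for 35 of the 48 genes. The SB431542 array farthest from the other pair was replicate 3 for 24 genes, replicate 1 for 13 and replicate 2 for 11. Even so, the range over all 6 arrays was under 0.5 for 46 of the 48 genes.

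Further genes of the same machinery, which are not among the 48, were tested in the same fit. Of 56 other replication genes, such as those of the origin recognition complex, clamp loader and chromatin assembly, 0 passed the limma test and 6 had an unadjusted p under 0.05, against 27.7% of all features. Their median change was 0.04, with 40 above 0, and 54 had an interval inside -0.5 to 0.5, against 64.8% of all features. Of 80 other mitosis genes tested, 1 rose, 0 fell and 15 had an unadjusted p under 0.05. Their median was 0.0042, with 42 of 80 above 0, and 72 intervals lay inside -0.5 to 0.5. The exception was Spc24, a subunit of the NDC80 kinetochore complex, with 3.93, 3.94 and 3.88 with SB431542 and 3.67, 3.64 and 3.66 with DMSO. Its SB431542 arrays were all higher, with a change of 0.26 ± 0.05 (limma adjusted p = 0.0223). The call for Spc24 was lost when DMSO replicate 1, 2 or 3 was left out (limma adjusted p = 0.0788, 0.1 and 0.0941) and when SB431542 replicate 1 or 2 was (limma adjusted p = 0.0651 and 0.067).

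Among 21 genes of the E2F, RB and DREAM regulators, which control the transcription of these genes, 2 fell and 0 rose, with a median of -0.01, where 7.38% of all features fell and 5.19% rose. The count of 2 is near that background. E2f8, an atypical E2F that represses cell cycle genes, had 2.05, 1.97 and 1.99 with SB431542 and 2.46, 2.41 and 2.43 with DMSO. Its groups were far apart relative to their spread, with a change of -0.43 ± 0.05 (limma adjusted p = 0.00507), and the call held with any single array left out. E2f7, the other atypical E2F, had 0.99, 1.14 and 1.01 with SB431542 and 1.44, 1.29 and 1.34 with DMSO. E2f7 fell by 0.31 ± 0.07 on the log2 scale (limma adjusted p = 0.0394), and its call was lost when DMSO replicate 1, 2 or 3 was left out (limma adjusted p = 0.126, 0.0912 and 0.119) and when SB431542 replicate 1 or 3 was (limma adjusted p = 0.0996 and 0.0816).

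Upstream of S phase, 4 of 15 tested genes of the G1/S cyclins and CDK inhibitors fell and 0 rose, where 7.38% of all features fell and 5.19% rose. The median change of the 15 was 0.0075, with 8 above 0. Ccnd2, cyclin D2, changed by -1.56 ± 0.08 and Cdkn1c, the inhibitor p57, by -1.36 ± 0.08. Smaller falls were measured for Ccnd1, cyclin D1 (-0.32 ± 0.05), and Cdkn1a, the inhibitor p21 (-0.54 ± 0.11). The call for Ccnd1 was lost when DMSO replicate 1, 2 or 3 was left out (limma adjusted p = 0.0608, 0.0544 and 0.0692), and that for Cdkn1a when any of those was left out (limma adjusted p = 0.0939, 0.102 and 0.103) or SB431542 replicate 1 was (limma adjusted p = 0.0745).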

How the data were processed

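Total RNA was labelled with Cy3 and hybridised to 1-colour Agilent arrays, 3 per group, with groups and replicate numbers taken from the titles. The deposited scanner files give intensity values per spot, background-subtracted by Agilent Feature Extraction and not normalized between arrays, per the file headers; version 10.7 is named in the submitters' processing notes. Flags for outlier, saturated and well-above-background spots are scores of 0 or 1, per the file headers. A table deposited by the authors holds the same arrays on a log2 scale (median 5.18 in each column, correlation with its own array at least 0.99988), and the sources used here do not give its normalization. It was one of the alternatives.

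Arrays held 62976 spots each. The 59305 that were not controls belonged to 55681 probes. Outlier spots were left out (81 probes), 0 spots were saturated, and 63.9% to 66.2% were well above background. The log2 processed signal of each probe was taken minus the array's 75th percentile over all probes left after the outlier step. Over single spots that percentile was a signal of 514 to 640. Probes needed to be well above background on at least 3 arrays. Accessions matched to a RefSeq table (GRCm38.p6) named 27235 probes; the array grid uses mm9, so no probe coordinates are given. The brightest probe stood for a gene. Differences were tested with limma 3.58.1 in R 4.3.3 (lmFit and eBayes without trend, two-sided, Benjamini-Hochberg over 25899 features, threshold 0.05), with Python 3.11.15 for reading and pandas 2.3.3 for summaries. Only the limma step was tested on simulated data. Arrays correlated across features at 0.995 to 0.997 within SB431542, 0.997 to 0.998 within DMSO and 0.991 to 0.994 between groups.

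Values on every array are given for the 10 genes with the smallest p and for 17 genes fixed by name. Pola1 was added after its values were seen, as an exception among the intervals. Of the other lists, genes past the threshold in the cell cycle lists and Smad7 were named, and the rest were counted. Dcn, Lum, Postn and Twist2 were named after their values were seen, for their signal near background, and Dppa5a for its weight in the marker sum. Tdgf1 was also named, as it is on both the Nodal target and the stem cell marker list. The members and all lists were chosen with earlier results of these data known. Alternatives were normexp background correction (offset 50), quantile and median normalization, the authors' table, other probe filters and summaries, slide and replicate blocks, eBayes with trend and robust, other thresholds and leaving out each array. The files hold no mean-signal column, so normexp ran on the median signal. Same-numbered arrays did not deviate together (correlations 0.0017, 0.072 and -0.058), so the numbers were not taken to pair them. Kif14 had no matched probe and Ccne2 was not tested. Protein sequences were not used here.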

Additional observations from a re-analysis of the deposited data

How the results depend on the processing

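The count of 0 passing genes among the 48 was also 0 under quantile and median normalization, the authors' table and every probe filter and summary. It stayed 0 with the slide block, the replicate block, an adjusted p under 0.01 and each array left out. The count at 0.01 follows from that at 0.05, and the slide block is the fit without SB431542 replicate 3. Leaving out an array also lowered the count of all features called (1467 to 2910, against 3257). The count among the 48 was 2 (1 higher, 1 lower) with normexp on the median signal and 6 (5 higher, 1 lower) with trend and robust. For these settings no share of all features called is given. At an adjusted p under 0.1 the count was 5 (4 up and 1 down). The median change of the 48 was -0.019 with normexp, against 0.0085, and ran from -0.01 to 0.03 with an array left out. The number of intervals inside -0.5 to 0.5 was 44 with the mean of probes and ran from 45 to 48 under the other alternatives.

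Features changed numbered 1222 at an adjusted p under 0.01 (431 up and 791 down), 4938 (2234 higher) under 0.1, and 2098 (792 higher) without a filter. The replicate block, where numbers did not pair the samples, gave 1567 (545 higher, 1022 lower). With an array left out the count ran from 1467 to 2910 (542 to 1235 higher, 925 to 1675 lower).

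Of the E2F, RB and DREAM regulators 2 passed, against 1 at an adjusted p under 0.01, without a filter, with the replicate block and with the slide block, and 4 with normexp; with an array left out it was 1 to 2. Of the G1/S genes 4 passed, against 2 at an adjusted p under 0.01 and with the replicate block, and 2 to 4 with an array left out. Of the other mitosis genes 1 passed, against 0 at an adjusted p under 0.01, without a filter and with the replicate block, 2 with the authors' table, median centring or the filter on all 6 arrays, 3 with the mean of probes or quantile normalization, 7 with normexp, 9 at an adjusted p under 0.1 and 10 with trend and robust; with an array left out it was 0 to 1. Of the other replication genes 0 passed, against 1 with the mean of probes, normexp or the slide block, 3 with trend and robust and 4 at an adjusted p under 0.1, and 0 to 1 with an array left out. Where a cause is not the threshold or the number of arrays or features, the cause was not tested.

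Changes near 0 turned sign for Ccnb1 (0.018, mean of probes), Plk1 (0.0094, normexp; -0.052 to 0.0029 with an array left out), Mki67 (0.0053, slide block; -0.049 to 0.0053 with an array left out), Tk1 (-0.0068, median centring; -0.012 to 0.031 with an array left out) and Rrm2 (-6.29e-05 to 0.17 with an array left out). With 3 arrays per group, small changes could not be separated from 0, as the intervals show.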
